A study of Mus musculus with 6 samples.

Results

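The miR-99 family of the mouse comprises 3 hairpin precursors, miR-99a, miR-99b and miR-100. Each can release a mature microRNA from its 5p side and one from its 3p side. The 6 mature names (mmu-miR-99a-5p, mmu-miR-99a-3p, mmu-miR-99b-5p, mmu-miR-99b-3p, mmu-miR-100-5p and mmu-miR-100-3p) were taken by name from a count table of 1915 mouse microRNA names, and all 6 had counts and passed the filter on low counts, which left 227 names for testing. That filter asks for a minimum level in 3 libraries. The strands miR-99b-3p and miR-100-3p passed it through the tumors, where they are high, and would not have passed through the oviducts. The 6 names were read in 3 primary tumors, labelled ADT tumor and oviduct tissue, with the Dicer1 genotype Dicer1ko/D1693N, and in 3 oviducts with the genotype Dicer1+/D1693N. All 6 mouse samples thus carried a D1693N allele, beside a knocked-out allele in the tumors and a normal allele in the oviducts. No sample was treated. The sources used here give neither strain, age nor how the knockout was made. Tumor state, genotype and a tag in the column names (s1 in the tumors, s0 in the oviducts) changed together and cannot be told apart.

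MicroRNA hairpins are trimmed by Dicer, which has a pair of cutting domains. Its RNase IIIb domain, in which D1693N lies, makes the cut at the end of the 5p strand, and its RNase IIIa domain makes the cut at the start of the 3p strand. One strand of each hairpin is usually retained as the guide, and its seed (bases 2 to 8) pairs with messenger RNAs. In the miR-99 family the 5p strand is the usual guide. The family is old among animals and is encoded beside let-7 and miR-125 hairpins, and in human cells its 5p strands are known to repress the growth kinase MTOR and the receptor IGF1R.

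The mature sequences, from RefSeq on GRCm38.p6, are shown because their seeds group the arms. Each is written 5′ to 3′ with the seed in capitals.
miR-99a-5p: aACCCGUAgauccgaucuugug
miR-99b-5p: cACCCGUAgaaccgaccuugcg
miR-100-5p: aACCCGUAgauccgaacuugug
miR-99a-3p: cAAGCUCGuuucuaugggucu
miR-99b-3p: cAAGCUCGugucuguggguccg
miR-100-3p: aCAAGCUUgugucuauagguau
The 3 5p strands share the seed ACCCGUA, which no other of the 1679 mature names in the sequence table carries. The 3p strands of miR-99a and miR-99b share the seed AAGCUCG with each other alone. That of miR-100 is annotated as starting 1 base earlier and has a seed of its own, CAAGCUU. Counted from the 5′ end of miR-99a-5p, miR-100-5p differs by U16A alone, while miR-99b-5p differs by A1C, U11A, U16C and U21C. How the authors assigned a read that matches both miR-99a-5p and miR-100-5p with 1 mismatch is not stated in those sources.

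The hairpins of miR-99a and miR-100 are printed with both mature arms in capitals, to show the loop that Dicer removes.
miR-99a: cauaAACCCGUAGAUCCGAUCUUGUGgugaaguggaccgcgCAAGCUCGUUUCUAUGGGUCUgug
miR-100: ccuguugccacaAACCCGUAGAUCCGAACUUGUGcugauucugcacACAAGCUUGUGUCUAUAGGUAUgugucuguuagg
The annotated arms are separated by 15 bases in miR-99a, 16 in miR-99b and 12 in miR-100. Mir99a lies on the plus strand of chromosome 16 (chr16:77598936-77599000, GRCm38), in an intron of the noncoding host gene Mir99ahg. It also lies in an intron of the protein-coding gene Gm11146 on the opposite strand. Mir99b lies on the plus strand of chromosome 17 (chr17:17830188-17830257), in an intron of Spaca6. Mir100 lies on the plus strand of chromosome 9 (chr9:41531425-41531504), in introns of the noncoding genes Gm49317 and 3110039I08Rik. It also overlaps an exon of Gm48742 on the opposite strand.

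Libraries held 154002 to 272167 mouse microRNA counts in the tumors and 297039 to 580390 in the oviducts. A count of 3 corresponded to 12.9 to 15.1 CPM in the tumors and to 5.48 to 11.9 CPM in the oviducts. Here CPM is the count scaled to the library size, with trimmed mean of M-values (TMM) factors applied. The mature strands are 21 or 22 bases long, so their CPM were compared with no correction for length, and differences in how well each sequence enters a library were not measured. MicroRNAs of multiciliated cells summed to 51.5 to 911 CPM in the tumors and 13673 to 20680 CPM in the oviducts. Of the 3 tested of 4, 2 were lower and 0 higher. All 4 are 5p strands, and 48.4% of all tested 5p names were lower. The 3p strands of miR-34b (log2 -1.53) and miR-34c (log2 -0.96, not called) changed less than their 5p strands (log2 -5.01 and -5.83). MicroRNAs of smooth muscle summed to 94661 to 836120 CPM in the tumors and 490591 to 558364 CPM in the oviducts. Of the 4 tested of 5, 2 were lower, both of them arms of the miR-145a hairpin. By far the largest in that sum, miR-143-3p was not called (log2 -0.45, edgeR adjusted p = 0.578). MicroRNAs of endothelium summed to 15198 to 20196 CPM in the tumors and 7146 to 9548 CPM in the oviducts. Here 2 of 2 were higher, both of them arms of the miR-126a hairpin. Of other epithelium 1 of 5 was lower, of red cells 1 of the 2 tested of 4 was higher, and of leukocytes 0 of 5 were called. Among all 227 tested names, 61 were higher and 58 lower. No marker of these 6 lists was at 0 in a whole group. The part of cell makeup in the results below was not tested, and in these bulk samples fewer cells of a type and less RNA per cell cannot be told apart.

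All 3 guide strands of the family were lower in the tumors. The strand with the largest fall was miR-100-5p, which had 282, 206 and 343 CPM in tumors 1 to 3, against 2276, 2309 and 1379.6 CPM in oviducts 1 to 3. The lowest oviduct stood well above the highest tumor. Its log2 fold change (tumor over oviduct) was -2.84 (SE 0.37, edgeR adjusted p = 0.000171), a 7.18-fold fall.

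The near-identical miR-99a-5p had 146, 159 and 219.8 CPM in the tumors, against 829, 829 and 617 CPM in the oviducts. The groups did not overlap, and the log2 fold change was -2.11 (SE 0.34, edgeR adjusted p = 0.000674). With the counts of miR-99a and miR-100 pooled arm by arm, the pooled 5p strand fell too (log2 -2.59, edgeR adjusted p = 0.000386).

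The smallest fall was that of miR-99b-5p, the most abundant guide of the family in both groups. It had 710.03, 889 and 761 CPM in the tumors, against 2594, 2514 and 1644 CPM in the oviducts. The log2 fold change was -1.52 (SE 0.33, edgeR adjusted p = 0.00313). This call was lost with library totals alone (log2 -1.09, edgeR adjusted p = 0.117) and with TMM factors from 5p names alone (log2 -0.38, edgeR adjusted p = 0.321). Of all 95 tested 5p names, 48.4% fell, so a fall in 3 of 3 is read against a common change. The median log2 fold change was -2.11 over the 3 guide strands and -1.04 over all tested 5p names.

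All 3 passenger strands were higher. In the tumors miR-99b-3p had 1269, 1236 and 2018 CPM, against 37.4, 42.0 and 35.6 CPM in the oviducts. Its log2 fold change was 5.27 (SE 0.39, edgeR adjusted p = 1.76e-05), a 38.6-fold rise. Every tumor had at least 252 counts of this strand and no oviduct more than 23.

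The 3p strand of miR-99a had 1883, 841 and 2308 CPM in the tumors, against 56.1, 58.4 and 43.5 CPM in the oviducts. Tumor 2 was the lowest tumor and still stood far above every oviduct. The log2 fold change was 4.97 (SE 0.47, edgeR adjusted p = 3.25e-05), a 31.3-fold rise.

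The 3p strand of miR-100 was rare in both groups. It had 101, 47.2 and 132 CPM in the tumors, from 20, 11 and 30 counts, against 6.24, 14.6 and 3.95 CPM in the oviducts, from 2, 8 and 1 counts. The log2 fold change was 3.30 (SE 0.62, edgeR adjusted p = 0.00151), and it was 3.95 without oviduct 2 (edgeR adjusted p = 0.0109), which held 8 of the 11 oviduct counts. Of all 110 tested 3p names, 41.8% rose. Both miR-99b-3p and miR-100-3p passed the low-count filter through the tumors alone, so that filter favored finding them risen. The median log2 fold change was 4.97 over the 3 passenger strands of the family and 0.89 over all tested 3p names. By size of the rise, miR-99b-3p ranked 7, miR-99a-3p ranked 9 and miR-100-3p ranked 27 among the 227 tested names. The CPM of the groups did not overlap for any of the 6 members, nor for 60.4% of all tested names.

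**Figure D1:**
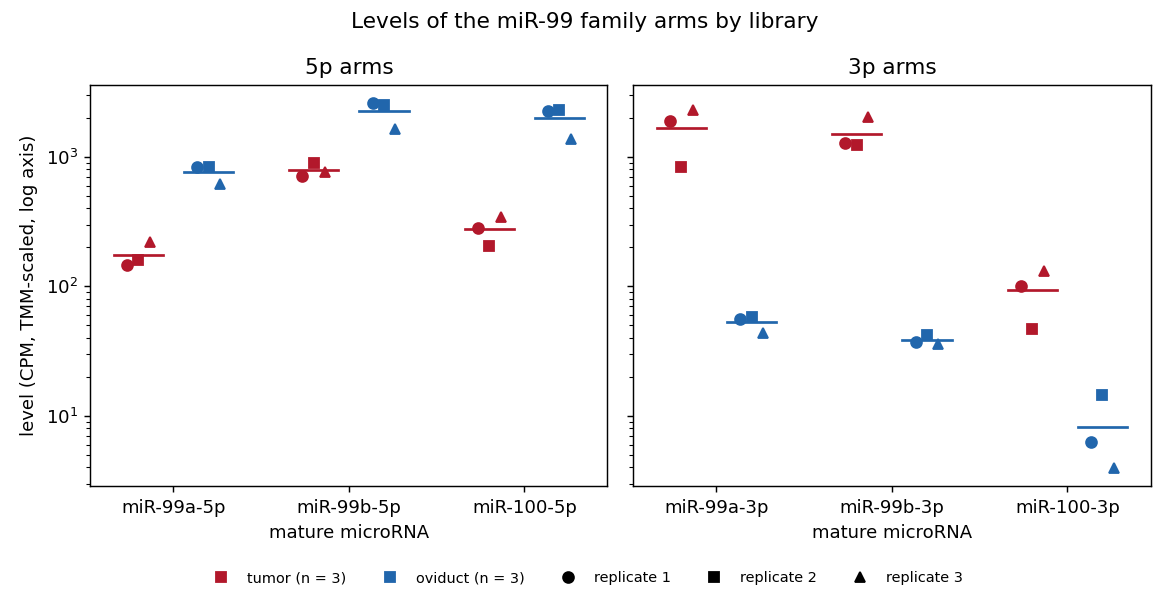
Level of each arm in CPM (TMM-scaled, log axis) in 3 tumors and 3 oviducts. Points are libraries and bars are group means. Every 5p strand lies lower and every 3p strand higher in all tumors than in all oviducts, and miR-100-3p lies lowest.

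The size of these changes depended on the scaling, while their directions were the same in each scaling tried. Over all tested names the median log2 fold change was 0.20 with TMM, -0.73 with TMM factors from 3p names alone and 1.33 with TMM factors from 5p names alone. Over the scalings tried, miR-100-5p lay between -3.78 and -1.69, miR-99a-5p between -3.04 and -0.98 and miR-99b-5p between -2.42 and -0.38. On the 3p side miR-99b-3p lay between 4.35 and 6.41, miR-99a-3p between 4.03 and 6.14 and miR-100-3p between 2.36 and 4.42.

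The ratio of the arms within a library needs no scaling. In miR-99a the 5p and 3p counts were 29 and 374 in tumor 1, 37 and 196 in tumor 2, and 50 and 525 in tumor 3. They were 266 and 18 in oviduct 1, 454 and 32 in oviduct 2, and 156 and 11 in oviduct 3. The 3p strand thus outnumbered the 5p strand by 5.30 to 12.9 times in the tumors, whereas the 5p strand outnumbered the 3p strand by 14.2 to 14.8 times in the oviducts.

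In miR-99b the counts were 141 and 252 in tumor 1, 207 and 288 in tumor 2, and 173 and 459 in tumor 3, a 3p excess of 1.39 to 2.65 times. They were 832 and 12 in oviduct 1, 1377 and 23 in oviduct 2, and 416 and 9 in oviduct 3, a 5p excess of 46.2 to 69.3 times. The main strand was therefore exchanged in miR-99b as in miR-99a, but by a smaller margin.

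In miR-100 the counts were 56 and 20 in tumor 1, 48 and 11 in tumor 2, and 78 and 30 in tumor 3, so that the 5p strand remained 2.60 to 4.36 times the more frequent one. They were 730 and 2 in oviduct 1, 1265 and 8 in oviduct 2, and 349 and 1 in oviduct 3. The 5p share was 75.8% ± 4.91 in the tumors and 99.6% ± 0.202 in the oviducts (SD, n = 3 each). From the pooled counts, 182 and 61 in the tumors and 2344 and 11 in the oviducts, the odds ratio was 71.2 (exact 95% interval 36.3 to 152), an interval that covers counting error only.

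The log2 5p:3p ratio fell in all 3 hairpins, as it did in 47.2% of the 142 hairpins tested. The change was -6.95 in miR-99a (SE 0.59), -6.70 in miR-99b (SE 0.58) and -6.12 in miR-100 (SE 0.59), with limma adjusted p = 1.92e-05, 1.92e-05 and 2.65e-05. Adding 5 instead of 0.5 to each count gave -4.98 for miR-100, whose oviduct 3p counts were few. The median change over the 142 hairpins was -1.53. Ranked by size of the fall, miR-99a stood at 2, miR-99b at 4 and miR-100 at 8.

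**Figure D2:**
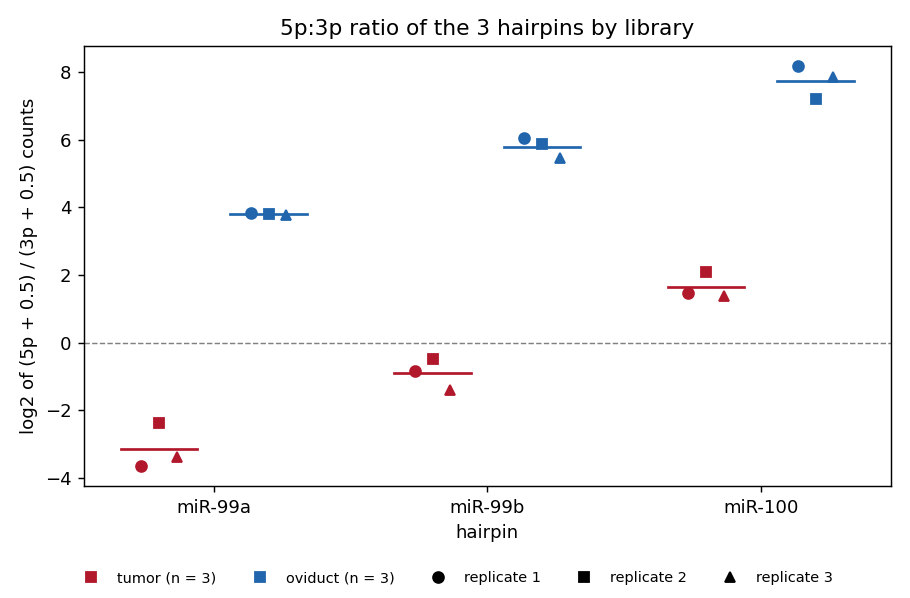
Log2 ratio of 5p to 3p counts (0.5 added to each) of the 3 hairpins in 3 tumors and 3 oviducts, with group means as bars. The dashed line marks equal counts. In the tumors miR-99a and miR-99b lie below it and miR-100 above it, and the order miR-100, miR-99b, miR-99a from high to low is the same in every library.

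**Figure D3:**
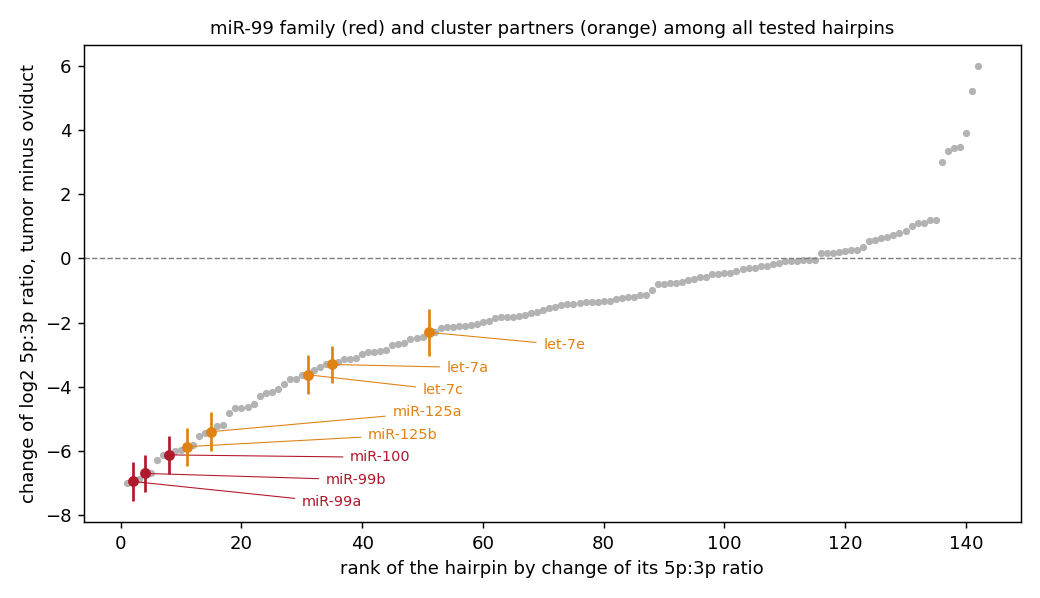
Change of the log2 5p:3p ratio (tumor minus oviduct) for the 142 tested hairpins, ranked from the largest fall. The family is red and its cluster partners orange, with bars of 1 SE from limma. The family members stand at ranks 2, 4 and 8.

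The hairpins differed more in where their ratio stood than in how far it moved. The mean log2 ratio was -3.15 ± 0.67, -0.91 ± 0.47 and 1.63 ± 0.39 in the tumors for miR-99a, miR-99b and miR-100, and 3.81 ± 0.04, 5.79 ± 0.31 and 7.76 ± 0.50 in the oviducts (SD, n = 3 each). In each of the 6 libraries miR-100 had the highest ratio, miR-99b the next and miR-99a the lowest. Oviducts hardly differed among themselves in miR-99a, with ratios from 3.77 to 3.85 on the log2 scale. These rest on 18, 32 and 11 counts of the 3p strand, and counting error alone allows a wider spread. In oviduct 3 the exact 95% interval of the 5p share was 88.5% to 96.7%.

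Whether paralogs changed differently was examined in 9 comparisons within libraries (3 pairs, for the 5p level, the 3p level and the ratio). The smallest p that 3 against 3 samples allow is 0.1, so none could pass a threshold of 0.05, and differences are given with their SE. The change of the log2 ratio differed by -0.25 between miR-99a and miR-99b (SE 0.33, exact permutation p = 0.7, adjusted p = 0.7). It differed by -0.83 between miR-99a and miR-100 (SE 0.34, exact permutation p = 0.1, adjusted p = 0.15) and by -0.58 between miR-99b and miR-100 (SE 0.35, exact permutation p = 0.2, adjusted p = 0.257). With 5 added to each count in place of 0.5, the differences from miR-100 were -1.53 for miR-99a and -1.29 for miR-99b, and with 0.1 added they were -0.64 and -0.39.

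Among the levels, the log2 ratio of miR-99b-5p to miR-100-5p was 1.32, 2.10 and 1.14 in the tumors and 0.19, 0.12 and 0.25 in the oviducts. These guides were thus close in the oviducts, with miR-99b 1.14 times miR-100 on average, and apart in the tumors, at 2.87 times. The difference was 1.33 (SE 0.29, exact permutation p = 0.1, adjusted p = 0.15), with no overlap of the groups. For miR-99a-5p against miR-100-5p it was 0.72 (SE 0.19, exact permutation p = 0.1, adjusted p = 0.15), and for miR-99a-5p against miR-99b-5p it was -0.62 (SE 0.22, exact permutation p = 0.1, adjusted p = 0.15).

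On the 3p side, miR-99a-3p was 17.5 times miR-100-3p in the tumors and 6.01 times in the oviducts, where 2 of the 3 libraries had fewer than 3 counts of miR-100-3p. The log2 values were close to one another in the tumors, 4.19, 4.09 and 4.11, and were 2.89, 1.93 and 2.94 in the oviducts. The tumor values rest on 20, 11 and 30 counts of miR-100-3p, for which counting error alone allows a wider spread. The difference was 1.54 (SE 0.33, exact permutation p = 0.1, adjusted p = 0.15), and that for miR-99b-3p against miR-100-3p was 1.91 (SE 0.47, exact permutation p = 0.1, adjusted p = 0.15). With 0.1 added to each count in place of 0.5 the first was 1.35 and the second 1.73, and with 5 added they were 2.28 and 2.56. For miR-99a-3p against miR-99b-3p it was -0.37 (SE 0.34, exact permutation p = 0.5, adjusted p = 0.562), with overlapping groups. These strands changed places between tumors, miR-99a being the higher in tumors 1 and 3 and miR-99b in tumor 2. In all 3 oviducts miR-99a-3p was the higher.

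Within the guide strands the order of levels was the same in every library, with miR-99b-5p first, miR-100-5p second and miR-99a-5p last. Of the family's 5p counts, miR-99b gave 63.6% ± 6.79, miR-100 22.4% ± 5.17 and miR-99a 14.04% ± 2.23 in the tumors. In the oviducts miR-99b gave 45.05% ± 0.528, miR-100 39.6% ± 1.52 and miR-99a 15.4% ± 1.35 (SD, n = 3 each). Of the 3p counts, miR-99a gave 49.8% ± 9.32, miR-99b 47.5% ± 9.78 and miR-100 2.76% ± 0.470 in the tumors. The 3p shares in the oviducts were 53.1% ± 2.81 for miR-99a, 39.0% ± 3.42 for miR-99b and 7.90% ± 4.22 for miR-100.

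**Figure D4:**
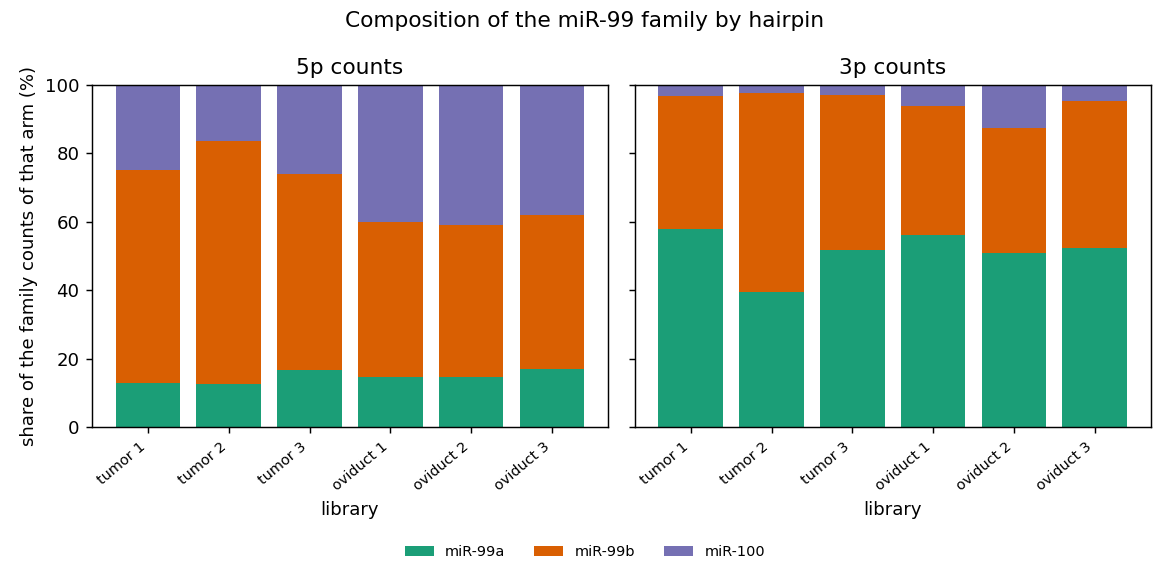
Share of each hairpin in the family's 5p counts (left) and 3p counts (right), in percent, for 3 tumors and 3 oviducts. The 5p share of miR-100 averages 22.4% in the tumors and 39.6% in the oviducts, and its 3p share 2.76% and 7.90%.

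Both arms together, the hairpins went in different directions. The miR-99a hairpin had 2029, 1000.3 and 2528 CPM in the tumors, against 886, 887 and 660.1 CPM in the oviducts. Its 2.28-fold higher mean came from 3p counts and was smallest in tumor 2. The miR-99b hairpin averaged 2294 ± 426 CPM in the tumors and 2289 ± 529 CPM in the oviducts (SD, n = 3 each), and the groups overlapped. The miR-100 hairpin had 383, 253 and 475 CPM in the tumors, against 2282, 2324 and 1384 CPM in the oviducts, a 5.39-fold lower mean.

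These sums were not tested, and they moved with the scaling. The tumor to oviduct ratio lay between 1.19 and 5.17 for miR-99a, between 0.526 and 2.21 for miR-99b and between 0.0964 and 0.415 for miR-100 over the scalings. For miR-99a the groups overlapped with relative log expression (RLE) factors and with TMM factors from 3p names. For miR-99b every tumor lay below every oviduct with TMM factors from 3p names and above with those from 5p names. Free of scaling, the miR-99a hairpin had 4.81 times the counts of miR-100 in the tumors and 0.413 times in the oviducts. The log2 values were 2.41, 1.98 and 2.41 in the tumors and -1.37, -1.39 and -1.07 in the oviducts, so their order was opposite in the 2 groups.

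**Figure D5:**
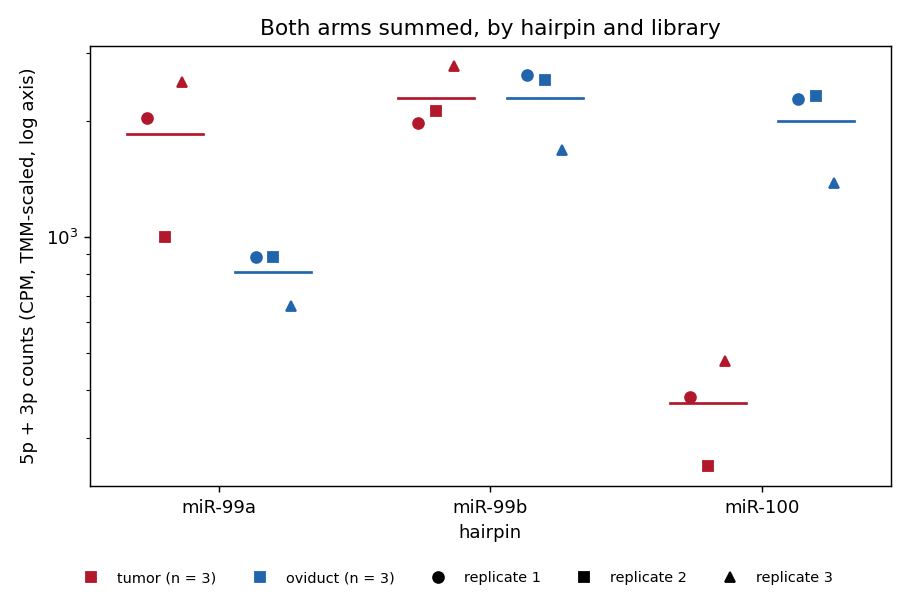
Summed 5p and 3p counts of each hairpin in CPM (TMM-scaled, log axis) in 3 tumors and 3 oviducts, with group means as bars. The miR-99a hairpin is higher and the miR-100 hairpin lower in every tumor than in every oviduct, while miR-99b overlaps. With RLE factors or TMM factors from 3p names miR-99a overlaps as well. In every tumor miR-99b is lower with TMM factors from 3p names and higher with those from 5p names.

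Summed over the 3 hairpins, the 5p strands had 1238 ± 93.6 CPM in the tumors and 4997 ± 1175 CPM in the oviducts, and the 3p strands 3279 ± 1167 CPM in the tumors and 99.3 ± 16.0 CPM in the oviducts (SD, n = 3 each). The 3p share of the family was 74.1%, 62.9% and 77.1% in the tumors, against 1.72%, 1.99% and 2.23% in the oviducts. Both arms together gave 4517 ± 1206 CPM in the tumors and 5097 ± 1189 CPM in the oviducts, with overlapping groups. The family held 0.320% to 0.854% of the mouse microRNA counts of a tumor and 0.317% to 0.544% of those of an oviduct. The tumor to oviduct ratio of the sum of both arms was 0.886 with TMM and lay between 0.462 and 1.97 over the other scalings. Every tumor lay below every oviduct in this sum with TMM factors from 3p names, and above with those from 5p names. Whatever the scaling, and going by the annotated sequences, ACCCGUA was the most frequent seed of the family in each oviduct and AAGCUCG in each tumor. Where the reads themselves started was not seen.

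Likeness between names was measured as the root mean square difference over the 6 libraries of log2 CPM centred on each name's own mean, and is given as a description. Nearest to miR-99a-3p were miR-3473b (0.33), miR-196b-3p (0.36) and miR-99b-3p (0.39), where the median distance to all tested names was 2.57. In the oviducts miR-3473b averaged 4.61 CPM and miR-196b-3p 0.608 CPM, where 3 counts correspond to 5.48 to 11.9 CPM. Their distances thus rest on few oviduct counts. Nearest to miR-99b-3p were miR-99a-3p (0.39), miR-3473b (0.43) and miR-181a-1-3p (0.49). For miR-100-3p they were miR-10b-3p (0.44), miR-181c-3p (0.45) and miR-542-3p (0.56), none of them from the family.

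On the 5p side, miR-99a-5p lay nearest to miR-1247-5p (0.30), miR-872-5p (0.30) and the cluster partner of miR-99b, miR-125a-5p (0.30). Nearest to miR-100-5p were miR-1247-5p (0.39), miR-99a-5p (0.41) and miR-330-5p (0.44). In the tumors miR-1247-5p averaged 14.9 CPM and miR-330-5p 6.25 CPM, where 3 counts correspond to 12.9 to 15.1 CPM. Nearest to miR-99b-5p were miR-26a-5p (0.11), miR-29c-3p (0.22) and miR-423-5p (0.25). By the centred log2 5p:3p ratio, miR-99a and miR-99b were each other's nearest hairpin (0.36), followed by miR-196b (0.38) and miR-218 (0.41) for miR-99a and by miR-218 (0.45) and miR-100 (0.45) for miR-99b. For miR-100 they were miR-196b (0.44), miR-99b (0.45) and miR-30d (0.49). In the oviducts miR-196b-3p averaged 0.608 CPM, and no 3p strand of miR-218 passed the low-count filter. The distances to miR-196b and miR-218 thus rest on few 3p counts and depend on the 0.5 added to each count.

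Each family hairpin is encoded near a let-7 and a miR-125 hairpin. The let-7 microRNAs are linked to differentiation, and miR-125 is the relative of worm lin-4. Mirlet7c-1 lies 656 bases and Mir125b-2 47272 bases from Mir99a, Mirlet7e 94 and Mir125a 554 bases from Mir99b, and Mirlet7a-2 5211 and Mir125b-1 50421 bases from Mir100. Of 13 names from these partners and their copies, 11 were tested. Of the 5 5p names 3 fell and 2 were not called, and of the 6 tested 3p names 5 rose and 1 was not called (edgeR), where 48.4% of all tested 5p names fell and 41.8% of all tested 3p names rose. The rises include let-7c-2-3p and let-7a-1-3p, whose counts are identical in every library and whose hairpins are other copies than those near the family.

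The guide strand miR-125b-5p, released by a partner of miR-99a and by a partner of miR-100, had 272, 146 and 211 CPM in the tumors, against 3212, 3101 and 1775 CPM in the oviducts. Its log2 fold change was -3.69 (SE 0.41, edgeR adjusted p = 6.98e-05), a larger change than that of any guide of the family, a difference that was not tested. The 3p strands tell its hairpins apart. Beside miR-100, miR-125b-1-3p had 1022, 1589 and 2163 CPM in the tumors, against 190.2, 246 and 182 CPM in the oviducts (log2 2.94, SE 0.38, edgeR adjusted p = 0.000171). Beside miR-99a, miR-125b-2-3p had 1183, 889 and 1398 CPM in the tumors, against 508, 336 and 308 CPM in the oviducts (log2 1.59, SE 0.34, edgeR adjusted p = 0.00321). That call was lost without oviduct 3 (log2 1.14, edgeR adjusted p = 0.0778) and with TMM factors from 3p names (log2 0.67, edgeR adjusted p = 0.127).

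The order of the arms' changes was thus not that of the neighbouring family members. The rise of miR-99a-3p (log2 4.97) exceeded that of miR-125b-2-3p (log2 1.59), while miR-100-3p (log2 3.30) and miR-125b-1-3p (log2 2.94) had closer values. These differences between neighbours were not tested.

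Beside miR-99b, miR-125a-5p fell (log2 -2.01, SE 0.36, edgeR adjusted p = 0.00127) and miR-125a-3p rose from few counts, with 27, 53 and 51 counts in the tumors and 4, 10 and 5 in the oviducts (log2 3.51, SE 0.56, edgeR adjusted p = 0.000674). The fall of miR-125a-5p was not called with TMM factors from 5p names (log2 -0.89, edgeR adjusted p = 0.0551). In the same cluster let-7e-5p fell (log2 -1.13, SE 0.32, edgeR adjusted p = 0.0122) and let-7e-3p was not called (log2 1.09, SE 0.57, edgeR adjusted p = 0.129). The call of let-7e-5p was lost with library totals alone (log2 -0.75, edgeR adjusted p = 0.292), and its sign turned with TMM factors from 5p names (log2 0.04).

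The let-7 guides shared with other copies, let-7c-5p (log2 -0.73, SE 0.29, edgeR adjusted p = 0.0560) and let-7a-5p (log2 -0.69, SE 0.30, edgeR adjusted p = 0.0716), missed the threshold. Both were called by DESeq2, with either other low-count filter, with TMM factors from 3p names and without tumor 1, and let-7a-5p also without oviduct 1. The passenger strands specific to the neighbouring copies were too rare to test. For let-7c-1-3p the counts were 6, 15 and 15 in the tumors and 0, 2 and 1 in the oviducts. For let-7a-2-3p they were 3, 2 and 5 in the tumors and 2, 1 and 3 in the oviducts.

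The log2 5p:3p ratio fell in all 5 partner hairpins, pooled over copies, against 47.2% of all hairpins. The change was -5.87 in miR-125b (SE 0.59, limma adjusted p = 2.78e-05) and -5.40 in miR-125a (SE 0.61, limma adjusted p = 4.68e-05). It was smaller in let-7c (-3.63, SE 0.61), let-7a (-3.30, SE 0.57) and let-7e (-2.30, SE 0.73, limma adjusted p = 0.0232). Most 3p counts of let-7c and let-7a came from let-7c-2-3p and let-7a-1-3p, 234 of 270 and 234 of 244 in the tumors. Those rows hold identical counts and belong to copies not near the family. The let-7c and let-7a values are thus not independent and do not measure the neighbouring copies alone. The call of let-7e was lost with 0.1 added to each count, with the replicate number as a block, without tumor 3 and without oviduct 3 (limma adjusted p = 0.0588, 0.0582, 0.0825 and 0.0938). All 5 partner values lay above those of the 3 family hairpins, a difference that was not tested.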

How the data were processed

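Small RNA libraries of 3 tumors and 3 oviducts were analysed, of 4 tumors and 5 oviducts named in the series text. Per the labels' protocols, RNA came from a miRNeasy extraction and libraries from a TruSeq small RNA kit. Trimming with cutadapt is named in the submitters' processing notes, and per the file headers counting used alignment files of trimmed reads. The aligner, counting program, microRNA reference and genome build: not given in the sources used here.

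The deposited values are raw counts per mature name, unnormalized. Names of other species (67, with 10 counts) were left out. Since the labels name no separate animals, the spread that p-values rest on may be technical. All libraries of a group differed beyond sampling noise (chi-square per degree of freedom at least 24.4).

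From these counts, arms were tested with edgeR 4.0.16 (R 4.3.3, filterByExpr with minimum count 10, TMM, robust quasi-likelihood). Hairpins with a mean of at least 20 counts were tested on log2 of (5p + 0.5) over (3p + 0.5) with limma 3.58.1, names of copies pooled. Tests were two-sided, adjusted by Benjamini-Hochberg over all names or hairpins at 0.05. Paralog pairs used exact permutation over the samples, adjusted over 9 comparisons. Intervals and floors cover counting error only. Both fits were checked on simulated counts. In the edgeR check, rises and falls were equally many and were assigned without regard to the arm. In these data 5p names mostly fell and 3p names mostly rose, so false calls from the scaling were not checked. The edgeR fit called 20 of 20 8-fold changes, 4 of 20 2-fold changes and 0 of 174 unchanged names. Changes near 2-fold were thus mostly missed there. The ratio fit called 25 of 27 64-fold changes and 0 of 100 unchanged hairpins. Named microRNAs were the members, their cluster partners and, for each member, the 3 nearest names. Some markers from the cell type lists, and the 3p strands of miR-34b and miR-34c, were named as well. Members and lists were chosen with earlier results of these data known. DESeq2 1.42.0, other scalings, filters and pseudocounts, pooled rows, a replicate block and leaving out each library were the alternatives. Sequences came from RefSeq (GRCm38.p6) and gene positions from GENCODE M21 (GRCm38). Figures used matplotlib 3.10.9 in Python 3.11.15.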

Additional observations from a re-analysis of the deposited data

How the results depend on the processing

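The 3 rises and 3 falls of the arms and the 3 falls of the ratio kept their direction in every scaling, filter, tool, pseudocount and leave-one-out fit tried, and their calls in all of these but the ones given for miR-99b-5p. With miR-99a and miR-100 pooled, 2 rises, 2 falls and 2 hairpins were called of the 2 names left on each side. Leaving out 1 library gave 3 rises and 3 falls each time. Calls over all 227 names split into 61 higher and 58 lower with TMM, 72 and 26 with library totals alone, 42 and 92 with TMM factors from 3p names, and 112 and 17 with those from 5p names.

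Among the cluster partners 3 fell in the main setting, 5 with TMM factors from 3p names, with no low-count filter, with a mean CPM minimum of 10 and by DESeq2, and 1 with TMM factors from 5p names. Leaving out 1 library gave 3 to 5 falls. With TMM factors from 5p names the log2 changes of let-7c-5p (0.46), let-7a-5p (0.49) and let-7e-5p (0.039) turned positive. These factors treat the 5p names as unchanged on average.

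The difference between miR-99a and miR-99b in the change of the ratio lay between -0.41 and 0.044 when 1 library was left out, the positive value being that without tumor 1. The other 8 pair differences kept their sign, but their size depended on the pseudocount where miR-100-3p enters, from -1.53 to -0.64 for the ratio of miR-99a against miR-100 and from -1.29 to -0.39 for that of miR-99b against miR-100.

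Same-numbered tumors and oviducts showed no clear shared deviation (r across names of -0.05, 0.09 and -0.14). Pairs of unlike number ranged from -0.14 to 0.15. These values cannot show whether same-numbered samples share more than a number. With the replicate number as a block, all 3 rises, 3 falls and 3 hairpin falls were called, for example miR-100-3p at log2 3.24 (edgeR adjusted p = 0.00714). Over all names the block gave 55 higher and 53 lower. The pair differences have the same value under the block, where 3 pairs allow no exact p below 0.25.

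Among the 6 members, miR-100-3p had the fewest counts in the oviducts, 11 over the 3 libraries.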
